A study of Mus musculus with 6 samples.

Results

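The genes that make the amino acid selenocysteine and insert it into proteins were followed in mouse liver with and without Selenoo, which encodes SelO, a selenoprotein of mitochondria. They are 9 genes (Sephs1, Sephs2, Pstk, Sepsecs, Secisbp2, Secisbp2l, Eefsec, Trnau1ap and Scly), taken by gene symbol for their known roles, under a rule that uses no measured value although earlier results of these data were known when it was made, and all 9 were found among the 16140 genes of the table. The control group held 3 livers of genotype Selofl/fl, in which both Selenoo alleles carry sites for Cre recombinase but are intact. The knockout group held 3 livers of genotype Selofl/fl Alb-Cre, in which Cre driven by the albumin promoter removes the floxed part in hepatocytes. Both groups shared the floxed alleles and, per the series title, a normal diet, and the labels list no other treatment. The labels used here state neither age nor sex. The controls carried no Cre, so an effect of Cre and an effect of losing Selenoo cannot be told apart, and cells of the liver in which the albumin promoter is silent keep the gene. Poly(A)-selected RNA of the 6 livers was sequenced in bulk to find how the loss changes the liver transcriptome.

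Estimated counts per library summed to between 15550289 and 18680195, and 12173 genes had enough counts to be tested. Selenoo stood at 94.8, 84.2 and 96.0 CPM (counts scaled to library size) in control livers and at 6.28, 9.31 and 7.67 CPM in knockout livers, a log2 fold change of -3.56 ± 0.17 (SE; edgeR, adjusted p = 4.64e-05). Its annotated exons share 998 bases with exons of Tubgcp6 on the opposite strand. Summed over 10 hepatocyte marker genes, the controls held 155000 to 195000 CPM and the knockouts 171000 to 196000, so both groups carried the labelled tissue's RNA at overlapping levels. Summed markers also overlapped for Kupffer cells (209 to 301 CPM in controls and 215 to 243 in knockouts, 6 genes), sinusoidal endothelial cells (257 to 280 and 212 to 265, 6 genes), stellate cells (261 to 304 and 240 to 309, 6 genes) and bile duct cells (19.2 to 53.9 and 30.3 to 42.0, 6 genes). They did not overlap for T and NK cells (3.11 to 5.94 in controls and 1.08 to 2.06 in knockouts, 5 genes), B and plasma cells (11.6 to 24.2 and 5.68 to 7.95, 6 genes) and neutrophils (5.10 to 7.75 and 3.75 to 4.78, 5 genes), and no marker was at 0 in every library. Of the single markers, Lyve1 and Jchain were lower past an adjusted p of 0.05. The part of these differences in the results below was not tested, and in bulk RNA fewer cells of a type and less RNA per cell cannot be told apart. The labels do not say that each library came from a different animal, so the p-values speak only for the spread among these 6 libraries.

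Selenocysteine is read from a UGA codon, which otherwise stops translation. It has no synthetase of its own and is built on its transfer RNA: that RNA is charged with serine, the kinase encoded by Pstk adds a phosphate, and the synthase encoded by Sepsecs swaps the phosphate for selenium taken from selenophosphate, which SEPHS2 makes. On the ribosome a hairpin of the selenoprotein mRNA, the SECIS element, binds SECISBP2, which recruits the special elongation factor EEFSEC with the loaded tRNA. The liver is the main source of selenoprotein P, which carries selenium in plasma to other organs.

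Sephs2 is at once part of this machinery and one of its products, whereas its paralog Sephs1 encodes no selenocysteine. GENCODE (release M21, GRCm38) marks a selenocysteine position in 24 mouse genes, and Sephs2 is the only 1 of the 9 machinery genes among them. The stretch of coding sequence around that codon is shown with the aligned stretch of Sephs1 and with the end of the Selenoo coding sequence, each with the codon concerned in capitals.
Sephs2: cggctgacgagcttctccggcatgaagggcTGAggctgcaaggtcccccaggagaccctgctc
Sephs1: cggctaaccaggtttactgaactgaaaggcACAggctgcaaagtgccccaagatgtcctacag
Selenoo: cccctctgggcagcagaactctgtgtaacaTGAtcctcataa
The Sephs2 stretch lies at chr7:127273701-127273763 on the minus strand, in the gene's single exon, and its TGA is codon 63 of 452. The Sephs1 stretch lies at chr2:4884467-4884529 on the plus strand, within 1 of 9 exons, and holds the threonine codon ACA, codon 29 of 392, in that place. The stretches match at 42 of 63 bases, and the proteins read from both transcripts are identical at 75.2% of 391 aligned residues. In Selenoo (chr15:89099945-89099986, plus strand) the TGA is codon 665 of 667, close to the end of the coding sequence.

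Levels per length differed widely within the machinery. In FPKM, the authors' fragment counts scaled by transcript length and library size, Sephs2 stood at 274, 352 and 376 in control livers and 349, 355 and 331 in knockout livers. It alone made up 71.4% to 76.1% of the summed FPKM of the 9 genes, and only 4 of the 20 other selenoprotein mRNAs in the table (Selenop, Gpx1, Gpx4 and Msrb1) had a higher mean. Scly, which encodes the lyase that frees selenium from selenocysteine, came second with 44.4, 62.1 and 57.6 FPKM in control livers and 47.4, 42.9 and 43.6 in knockout livers. Eefsec followed at 24.8 to 30.1 FPKM over the 6 libraries, and then Trnau1ap at 14.3 to 18.5. These 4 genes kept ranks 1 to 4 in every library, and none of their ranges overlapped.

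The other 5 genes lay together at the bottom and could not be ordered. Sepsecs ranged from 4.87 to 6.81 FPKM, Sephs1 from 4.74 to 6.37, Secisbp2l from 3.96 to 6.44, Secisbp2 from 3.81 to 5.93 and Pstk from 3.53 to 5.78. Each pair of neighbours in this order overlapped, and ranks 5 to 9 changed hands between libraries. The mRNAs of both SECIS-binding proteins and of both enzymes that act on the charged tRNA were thus among the lowest of the set, whereas that of the selenophosphate-making enzyme was the highest, 6.84 times the mean FPKM of the next gene. In CPM, which is not scaled by length, 98.6% of all tested genes lay at or below Sephs2, 90.5% at or below Scly, 54.1% at or below Secisbp2 and 24.6% at or below Pstk.

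**Figure D1:**
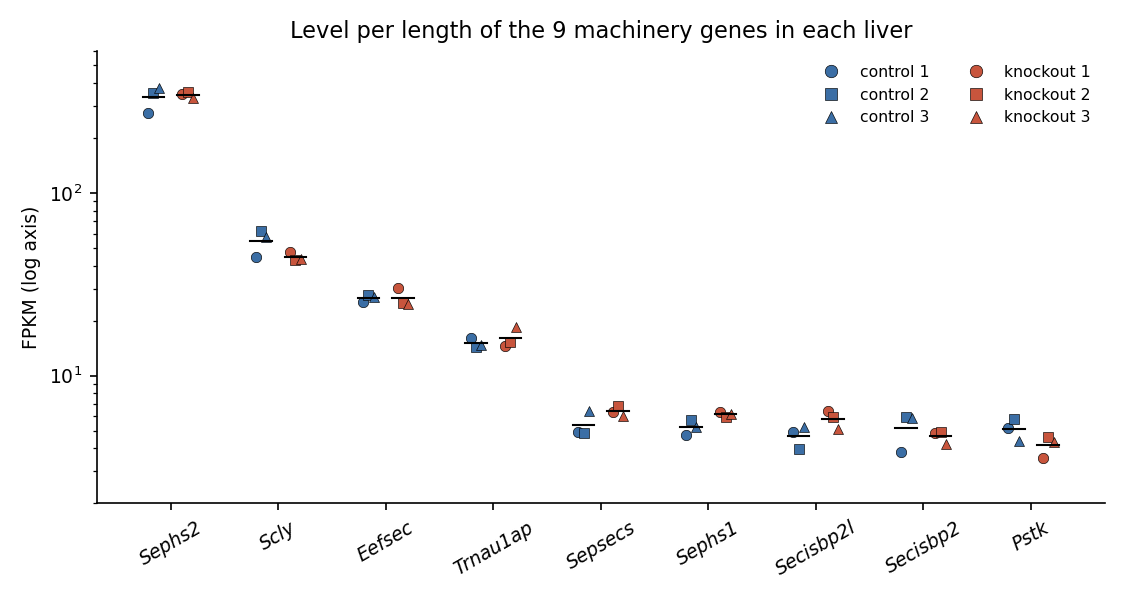
FPKM on a log axis for the 9 genes, ordered by mean, with a point for each library (blue, control; red, knockout; marker shape, replicate number) and a line at each group mean. Sephs2 lies between 274 and 376 FPKM and the 5 lowest genes between 3.53 and 6.81.

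Sephs2 and Sephs1 also differ in the letters before their start sites. The 100 bases before the annotated start in RefSeq (GRCm38.p6) are shown because these paralogs stand so far apart in level, with matches to TATAAA or GGGCGG, searched on both strands, in capitals.
Sephs2: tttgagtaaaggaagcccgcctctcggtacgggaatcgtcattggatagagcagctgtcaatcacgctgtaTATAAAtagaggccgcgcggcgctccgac
Sephs1: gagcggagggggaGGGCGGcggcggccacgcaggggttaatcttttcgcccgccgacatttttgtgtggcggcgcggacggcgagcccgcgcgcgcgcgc
The Sephs2 stretch is chr7:127274060-127274159 on the minus strand and the Sephs1 stretch, the first of its starts listed, chr2:4882127-4882226 on the plus strand. RefSeq windows from 250 bases before to 50 after the start were matched for 8 of the 9 genes (not for Sepsecs). Sephs1 has more than 1 listed start, so there were 9 windows. TATAAA was found in 1 of the 8, Sephs2, where it begins 29 bases before the start, and in 13.6% of all 32851 windows. GGGCGG was found in 6 of the 8 genes, or 6 of their 9 windows, and in 35.7% of all windows. The motifs do not overlap each other by letters, and a match describes the sequence only.

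None of the 9 machinery genes passed an adjusted p of 0.05 between knockout and control livers in edgeR's quasi-likelihood test, where 1.49% of all tested genes did, 0.772% higher and 0.715% lower. At an unadjusted p under 0.05 there was 1, Sephs1, beside 18.5% of all tested genes (9.26% higher and 9.27% lower). DESeq2 called 0 of the 9, beside 5.26% of the genes it tested, and limma-voom and limma on FPKM or TPM each called 0 of the 9. Of all 12173 tested genes, limma called 166 with voom, 110 on log2(FPKM + 1), 126 on log2(FPKM + 0.1) and 79 on log2(TPM + 1). The log2 fold changes ran from -0.24 to 0.36, with a median of 0.106 against -0.018 over all tested genes. Their median size of 0.230 was close to the 0.218 of all tested genes. In 6 genes the fold change was positive and in 3 negative, beside 5822 positive and 6351 negative over all tested genes. For the 9 genes it was 5 and 4 with upper-quartile scaling or on FPKM, where Eefsec lay just below 0. It was also 5 and 4 without control replicate 2, without knockout replicate 1 or without knockout replicate 3. Without control replicate 3, 7 were positive. Groups did not overlap in 2 genes, Sephs1 and Sepsecs, both higher, beside 13.2% of all tested genes that were higher without overlap, 11.9% lower and 25.2% in either direction. This holds in CPM: on FPKM and TPM control replicate 3 of Sepsecs lay among or above the knockouts, and only Sephs1 was without overlap among these 2 genes.

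The 95% intervals of all 9 genes, from 0.62-fold at the lowest end to 1.66-fold at the highest, lay inside a 2-fold change in either direction, and 8 of the 9 included no change. They cover the spread between these libraries and are not adjusted for the number of genes. In 8 of the 9 genes the change could not be told from the spread, and that of Sephs1 did not pass adjustment over all tested genes. Of the lowest values of the 9 genes, 3 fell in control replicate 1 and 3 in control replicate 2, and the coefficient of variation of CPM was larger among controls than among knockouts in 6 of the 9. Whole control libraries also differed more from each other than knockout libraries did. Chi-square over its degrees of freedom was 47.17 to 81.22 between controls and at most 37.34 between knockouts. The matching shares of all tested genes were not computed, so whether the spread of the 9 genes is particular to the machinery was not tested.

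**Figure D2:**
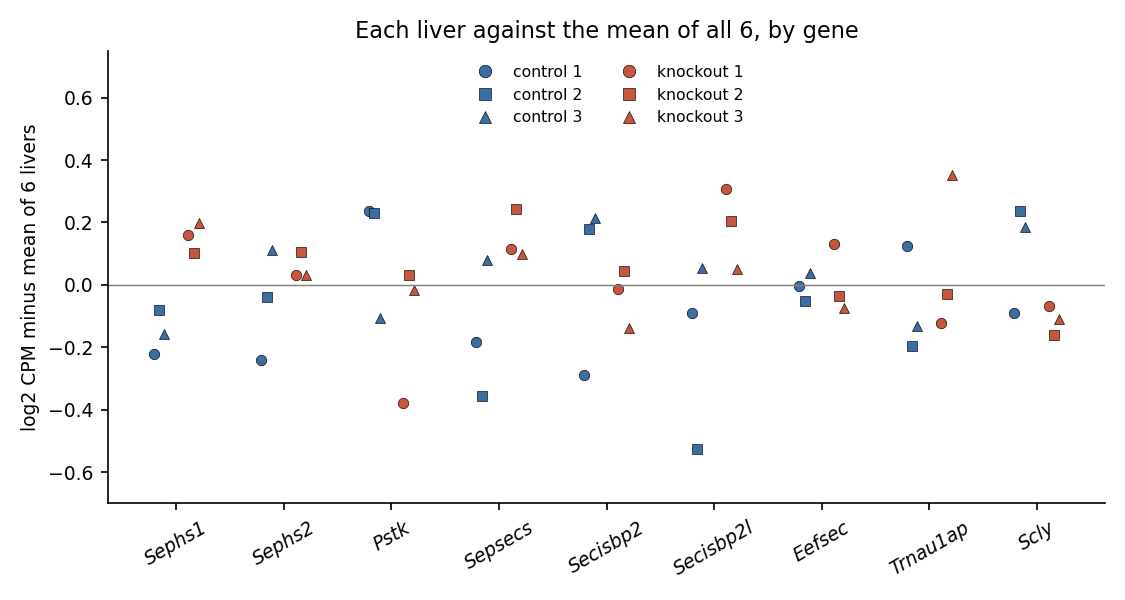
Log2 CPM of each gene in each library minus the gene's mean over the 6 libraries, with genes in the order selenophosphate synthetases, tRNA enzymes, insertion factors and Scly. On this scale the groups are apart for Sephs1 and Sepsecs and overlap in the other 7 genes.

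Among the selenophosphate synthetases, Sephs2 (NCBI Gene 20768, chr7:127271879-127275315) held 552, 634 and 703 CPM in control livers and 667, 700 and 666 in knockout livers. Control replicate 1 was the lowest library and control replicate 3 the highest, so the knockouts lay inside the control range. The log2 fold change was 0.11 ± 0.14 (SE), an interval of 0.86 to 1.35-fold (edgeR, adjusted p = 0.719). Without control replicate 1 the log2 fold change was 0.0204, and without control replicate 3 it was 0.195.

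Sephs1 (NCBI Gene 109079, chr2:4881564-4914292) encodes a related protein that does not itself make selenophosphate in mammals. Its values were 24.5, 27.0 and 25.6 CPM in control livers and 31.9, 30.7 and 32.8 in knockout livers. All 3 knockouts lay above all 3 controls, and the spread within each group was small (SD 1.27 and 1.08). The log2 fold change was 0.31 ± 0.12 (SE), or 1.24-fold with an interval of 1.03 to 1.48, and edgeR gave an adjusted p of 0.206. It did not pass under any alternative, with an adjusted p of 0.160 to 0.528 over them.

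The tRNA enzymes differed from each other in sign. Sepsecs (NCBI Gene 211006, chr5:52640089-52669764) stood at 25.4, 22.5 and 30.5 CPM in control livers and 31.2, 34.2 and 30.9 in knockout livers. The highest control, replicate 3, was just under the lowest knockout. The log2 fold change was 0.30 ± 0.14 (SE; edgeR, adjusted p = 0.304), and it was 0.43 without control replicate 3 (adjusted p = 0.0882) and 0.20 without control replicate 2 (adjusted p = 0.591). On FPKM the values were 4.92, 4.87 and 6.41 in control livers and 6.31, 6.81 and 6.02 in knockout livers, so that control replicate 3 lay above 2 of the knockouts.

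Pstk (NCBI Gene 214580, chr7:131371113-131394482) had the fewest counts of the set, 72, 93 and 73 in control livers and 58, 73 and 71 in knockout livers. That is 4.83, 4.80 and 3.78 CPM against 3.12, 4.17 and 4.03, with control replicate 3 inside the knockout range. Its log2 fold change of -0.24 ± 0.20 (SE) had the widest interval, 0.62 to 1.15-fold (edgeR, adjusted p = 0.527). It was -0.12 without knockout replicate 1, its lowest library, and between -0.35 and -0.19 without any other single library. Annotated exons of Pstk, pooled over all its GENCODE transcripts, share 4652 bases with exons of Ikzf5 on the opposite strand. The longest protein-coding Pstk transcript has only 1135 bases, so most of the shared bases lie outside it. How much of that transcript is shared was not computed. Since the strand setting of the counting is not given, reads of the pair cannot be told apart in the shared stretches. Shorter stretches on opposite strands are shared by Sephs2 with Gm44729 (792 bases), Eefsec with Gm44264 (308 bases) and Scly with Gm17090 (159 bases). Unlike Ikzf5, these Gm genes are not among the genes measured, and reads of theirs cannot be told from those of the machinery gene there.

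Both SECIS-binding genes were followed separately. Secisbp2 (NCBI Gene 75420, chr13:51651682-51684044) held 12.2, 16.9 and 17.4 CPM in control livers and 14.8, 15.4 and 13.6 in knockout livers. The knockouts lay within the control range, whose low end was control replicate 1. Its log2 fold change was -0.09 ± 0.16 (SE), an interval of 0.73 to 1.21-fold (edgeR, adjusted p = 0.791).

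Secisbp2l (NCBI Gene 70354, chr2:125736986-125782870), whose protein resembles SECISBP2 and is less well understood, had 29.7, 21.95 and 32.9 CPM in control livers and 39.2, 36.4 and 32.8 in knockout livers. The groups touched only through control replicate 3 and knockout replicate 3. It had the largest fold change of the 9, 0.36 ± 0.17 (log2, SE; edgeR, adjusted p = 0.285) and an interval of 0.99 to 1.66-fold. Without control replicate 2, its lowest library, the value was 0.206.

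Eefsec (NCBI Gene 65967, chr6:88257334-88446552) encodes the elongation factor itself and had the smallest fold change of the 9. It held 48.0, 46.4 and 49.4 CPM in control livers and 52.7, 46.9 and 45.7 in knockout livers, so that knockouts lay on both sides of the controls. The log2 fold change was 0.016 ± 0.12 (SE), an interval of 0.84 to 1.22-fold (edgeR, adjusted p = 0.951).

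Trnau1ap (NCBI Gene 71787, chr4:132311763-132330696) encodes an RNA-binding protein first found with the selenocysteine tRNA. Its values were 14.9, 11.9 and 12.4 CPM in control livers and 12.5, 13.4 and 17.4 in knockout livers. A single library, knockout replicate 3, was above all others. The log2 fold change of 0.15 ± 0.17 (SE) had in edgeR an adjusted p of 0.669, and without that library it was -0.011.

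Scly (NCBI Gene 50880, chr1:91297203-91321102) had 90.3, 113 and 109 CPM in control livers and 91.8, 86.1 and 89.1 in knockout livers. Control replicates 2 and 3 were above all knockouts, while control replicate 1 lay among them. Its log2 fold change was -0.23 ± 0.13 (SE), an interval of 0.69 to 1.05-fold (edgeR, adjusted p = 0.386). It was -0.32 without control replicate 1 (adjusted p = 0.160) and -0.17 without control replicate 2 (adjusted p = 0.654).

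Transcript length was set beside these differences, and whether it caused any part of them was not tested. Across 11944 tested genes, deviations from the gene's mean correlated with transcript length at a Spearman's rho of -0.295, -0.219 and 0.271 in control livers and 0.265, 0.085 and 0.0879 in knockout livers. The 3 machinery genes with transcripts over 5000 bases (Secisbp2l at 6797, Sephs1 at 5319 and Sepsecs at 5252) had log2 fold changes of 0.30 to 0.36, and the 6 shorter ones, 1130 to 3328 bases, of -0.24 to 0.15. Over the 9 genes, rho between length and fold change was 0.633. With each library's trend on length and GC content removed, the 3 long genes were at 0.22 to 0.26, the 6 others at -0.16 to 0.27, and rho was 0.267. Trnau1ap, the shortest, went from 0.15 to 0.27 and was then the highest of the 9. With the trend removed, 0 of the 9 passed, beside 312 of all 12173 tested genes.

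**Figure D3:**
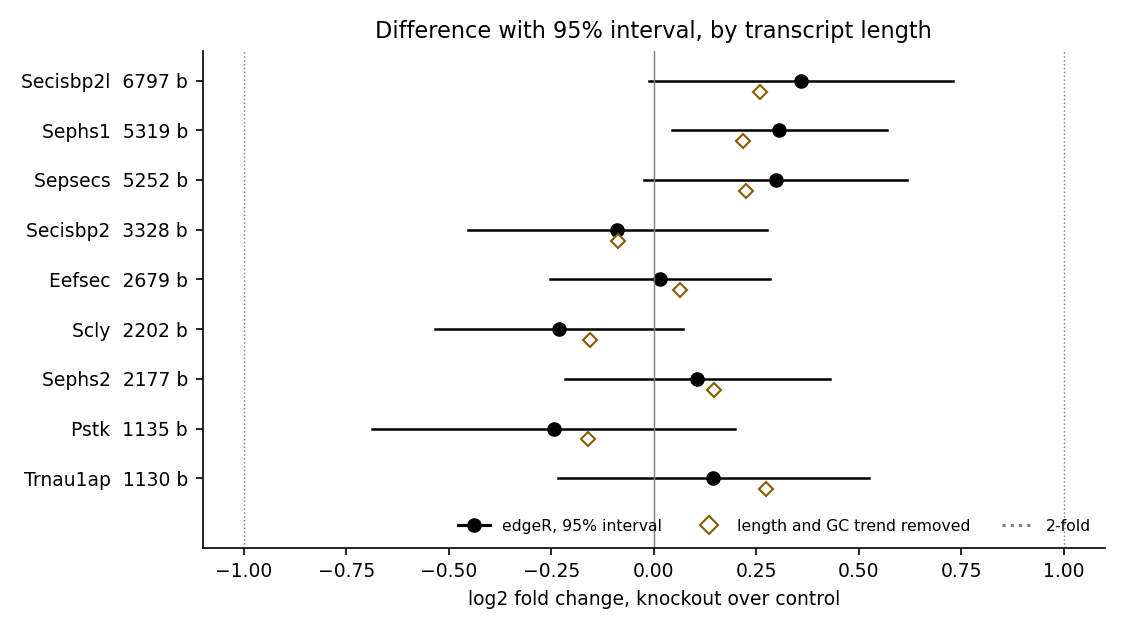
Log2 fold change of knockout over control for each gene with its 95% interval (black), and the value with the length and GC trend removed (open diamonds), ordered by the length of the longest protein-coding transcript in bases. All intervals lie inside the dotted 2-fold lines, and the 3 longest transcripts have the 3 highest black points.

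The balance within each paralog pair was compared by the ratio of their FPKM. Sephs2 exceeded Sephs1 by 57.8, 61.5 and 72.1 times in control livers and by 54.8, 59.6 and 53.5 times in knockout livers. The ranges overlapped, and the mean log2 ratio was 5.99 ± 0.17 (SD, n = 3) in controls and 5.81 ± 0.082 (SD, n = 3) in knockouts, a difference of -0.18 (two-sided exact permutation p = 0.2). Secisbp2l stood at 1.29, 0.668 and 0.889 times Secisbp2 in control livers and at 1.32, 1.2 and 1.2 times in knockout livers. Secisbp2l was thus the higher of the pair in all 3 knockouts and in 1 of 3 controls, and control replicate 1 lay within the knockout range. The difference in mean log2 ratio was 0.44 (two-sided exact permutation p = 0.3), from -0.13 ± 0.48 (SD, n = 3) to 0.31 ± 0.077 (SD, n = 3), and it was 0.684 without control replicate 1 and 0.210 without control replicate 2. With 3 libraries against 3 the smallest p this test can give is 0.1. No run of 25 bases is shared within either pair of transcripts (the longest are 21 and 18 bases).

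**Figure D4:**
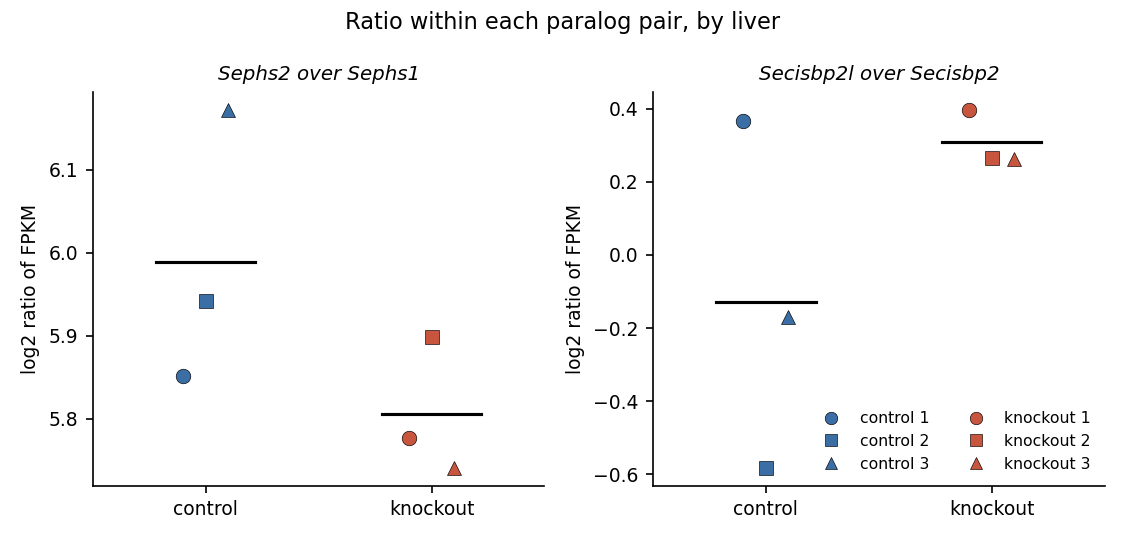
Log2 ratio of FPKM within the pairs Sephs2 over Sephs1 (left) and Secisbp2l over Secisbp2 (right), with a point for each library, a line at each group mean and a separate scale on each axis. Knockouts and controls overlap in both pairs.

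The genes around the machinery were described in the same test, and their counts stand beside the same shares of all tested genes. Of 18 tested selenoproteins other than Selenoo and Sephs2, 1 was higher past an adjusted p of 0.05 and 0 lower, beside 0.772% and 0.715% of all tested genes, with a median log2 fold change of 0.061. The called gene was Dio1, the deiodinase that activates thyroid hormone, at 13.1, 10.5 and 22.6 CPM in control livers and 108, 74.0 and 49.2 in knockout livers (log2 2.32 ± 0.34, SE; edgeR, adjusted p = 0.0150). Its adjusted p was 0.0509 without control replicate 2 and 0.0542 without knockout replicate 2. Gpx1, the abundant cytosolic glutathione peroxidase, stood at 882, 1010 and 1020 CPM in control livers and 1332, 1447 and 1261 in knockout livers, with an adjusted p of 0.128, and DESeq2 called it (adjusted p of 0.0148). Selenok, of the endoplasmic reticulum, stood at 70.8, 56.2 and 35.1 CPM in the controls against 32.5, 34.3 and 33.8, with an adjusted p of 0.151. Gpx3, the plasma glutathione peroxidase, was at -0.85 ± 0.28 (log2, SE), with an adjusted p of 0.164, and these 4 of 18 were the selenoproteins with an unadjusted p under 0.05, beside 18.5% of all tested genes. The log2 fold change of 0.11 of Sephs2, the selenoprotein inside the machinery, stands beside their values of -0.85 to 2.32.

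Of 12 genes listed around charging and maturation of the tRNA, 0 passed in edgeR, 0 at an unadjusted p under 0.05 and 0 in DESeq2. The shares of all genes tested were 1.49%, 18.5% and 5.26%. The median log2 fold change of the 12 was -0.066. The smallest p among them belonged to Trmt112, a partner of tRNA methyltransferases (-0.25 ± 0.12, log2 and SE, with an edgeR adjusted p of 0.314). Elp2 (-0.31 ± 0.16) and Elp3 (0.20 ± 0.16), subunits of the Elongator complex that modifies wobble bases, came next. Sars, the seryl-tRNA synthetase that loads the tRNA with serine, was at -0.15 ± 0.14 (log2, SE).

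Of 13 genes listed around the binding, cap and decay of selenoprotein mRNA, 1 was lower past an adjusted p of 0.05 and 0 higher in edgeR's test. Past that threshold 0.715% of all tested genes were lower and 0.772% higher. The list also holds assembly factors of RNA-protein particles. Of all 13 log2 fold changes 10 were negative and 3 positive, with a median of -0.169, beside 6351 negative and 5822 positive over all tested genes. The one that fell was Nufip1, an assembly factor of small nucleolar and other RNA-protein particles, at 11.2, 11.1 and 9.38 CPM in control livers and 5.80, 5.997 and 6.19 in knockout livers. Every knockout was below every control, and the log2 fold change was -0.81 ± 0.15 (SE; edgeR, adjusted p = 0.0333). It no longer passed without control replicate 2 (0.113), nor without knockout replicates 1, 2 and 3 (adjusted p of 0.137, 0.168 and 0.125), nor with the replicate number as a block (0.104). Nufip1 also did not pass with that block and the length and GC trend removed (0.0614). Nor did it in limma on log2(FPKM + 1) (0.0694), log2(FPKM + 0.1) (0.0653) and log2(TPM + 1) (0.116). Smn1, the core gene of the particle assembly complex, was at -0.50 ± 0.18 (log2, SE), with an adjusted p of 0.197.

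Of 8 tested genes of selenium uptake, handling and disposal of truncated selenoproteins, 0 passed in edgeR and 1 at an unadjusted p under 0.05, beside 1.49% and 18.5% of all tested genes. That was Inmt, a methyltransferase, at 739, 451 and 552 CPM in control livers and 792, 865 and 1090 in knockout livers (edgeR, adjusted p of 0.144). DESeq2 called it (adjusted p of 0.0351), as did edgeR without control replicate 1 (0.0406). Lrp2, an uptake receptor for selenoprotein P, was at 1.23 ± 0.55 (log2, SE; edgeR, adjusted p = 0.275). It lay near the floor, at 0.20, 0.57 and 0.26 CPM in control livers and 1.34, 0.46 and 0.68 in knockout livers, and the groups overlapped. Klhdc3, a ubiquitin ligase receptor for truncated selenoproteins, was at 0.19 ± 0.12 (log2, SE). The median log2 fold change of this list was 0.203. Of 11 general elongation and termination factors, 0 passed in edgeR, 0 in DESeq2 and 1 at an unadjusted p under 0.05, beside 1.49%, 5.26% and 18.5% of all genes tested. The 1 was Eef1e1 (-0.47 ± 0.19, log2 and SE; edgeR, adjusted p of 0.226). That gene encodes a protein of the multi-synthetase complex. Eef1d, of the exchange complex that recharges elongation factor 1, was at -0.33 and Etf1, the release factor that reads stop codons, at 0.27, and the list's median was 0.072.

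**Figure D5:**
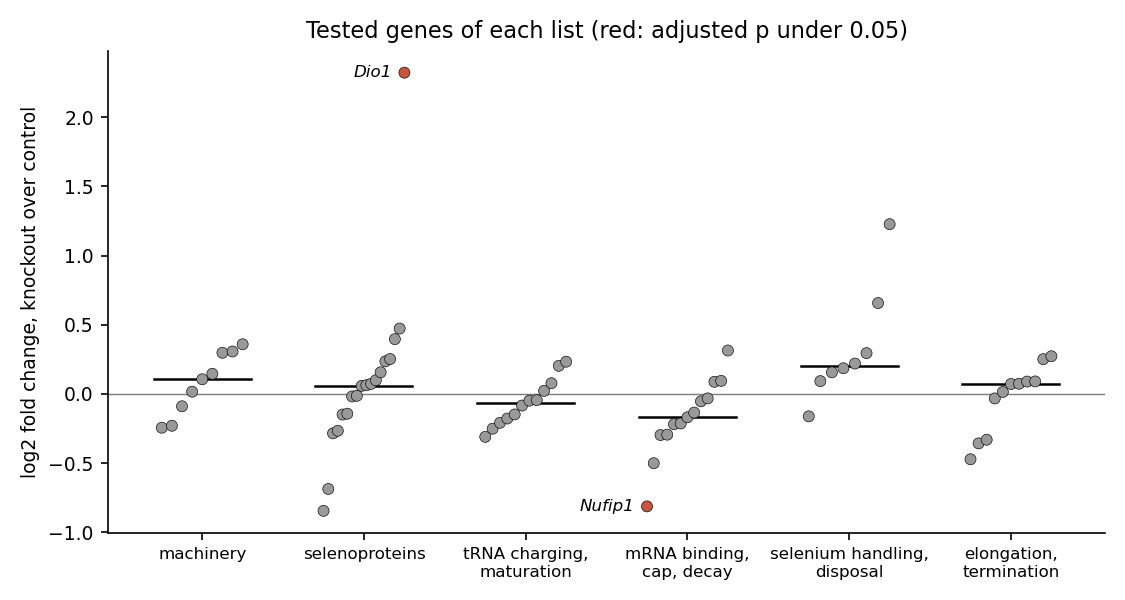
Log2 fold changes of the tested genes in the machinery and 5 surrounding lists, a point for each gene and a line at each list's median, with genes past an adjusted p of 0.05 in red and named. The machinery spans -0.24 to 0.36 and holds no red point, and Dio1 and Nufip1 are the called genes.

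The genes most like Sephs1, the machinery gene with the smallest p, were looked for among 11534 genes by the root mean square difference between log2 CPM profiles, each centred on its own mean over the 6 libraries. They were Armc1 (0.0351), Fam222b (0.0380) and Ric8b (0.0415), with log2 fold changes of 0.29, 0.31 and 0.30 and adjusted p of 0.225, 0.189 and 0.306 in edgeR's test. Having been picked for their likeness to Sephs1 over these 6 libraries, they share its fold change by that choice, and the values are a description only.

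In the authors' annotation of the table, 6 of the 9 genes carried the Gene Ontology term for selenocysteine incorporation, which no other gene in the table carried. Sephs1 and Sephs2 shared the term for selenide, water dikinase activity, although, as stated above, the Sephs1 protein does not itself make selenophosphate in mammals. Scly alone had the term for selenocysteine breakdown. The authors' deposited table gave log2 fold changes of 0.31 for Sephs1 (q of 0.328), 0.36 for Secisbp2l (q of 0.432) and 0.30 for Sepsecs (q of 0.500), and no machinery gene had a q under 0.05 there.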

How the data were processed

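Poly(A)-selected RNA of 6 mouse livers was sequenced. HISAT2, Bowtie2 and RSEM 1.3.1 with GRCm38 are named in the submitters' processing notes, while step order, trimming and strand setting are given in no label or header used here. Estimated counts, FPKM and TPM of each gene and library stand in 1 table made by the authors. Their log2 fold changes, p-values and q-values come from DESeq2, per the file headers. Each column was assigned by its group and replicate number, and the columns call the controls wild type. The table's strand differs from GENCODE's for 11.6% of genes, Sephs2 and Eefsec among them, so strands here are those of GENCODE and RefSeq. Gene spans come from the deposited table.

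Estimated counts (4.70% to 5.12% not whole) were rounded. Genes were kept with filterByExpr, scaled with TMM and tested by quasi-likelihood in edgeR 4.0.16 (R 4.3.3), genotype being the only term, with Benjamini-Hochberg adjustment over 12173 genes at 0.05. SEs came from the F statistic and 95% intervals from its degrees of freedom. A count of 0 allows up to 3 counts, 0.161 to 0.193 CPM. Intervals and floors cover counting error and the spread between libraries only, since PCR copies cannot be recognised without molecular identifiers. Every pair of replicates differed by more than sampling noise (chi-square over its degrees of freedom 20.0 or more). Lengths and GC content came from the longest protein-coding GENCODE M21 transcript. The procedure was tested on simulated data.

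Members, lists and tests were chosen with earlier results of these data known. Named genes are Selenoo, the 9 members and, in each list, the called genes or else the 3 with the smallest p. The 3 genes most like Sephs1 were named by the same rule, and the markers Lyve1 and Jchain because they passed. Gpx1, Gpx3, Gpx4, Msrb1, Selenoi, Selenok, Selenop, Smn1 and Sars were named besides, after their values were seen. The alternatives tried were upper-quartile scaling, DESeq2 size factors, a filter at 1 CPM in 3 libraries, no count filter, DESeq2 1.42.0, limma 3.58.1 (voom, and log2(FPKM + 1), log2(FPKM + 0.1) and log2(TPM + 1) with a trend), the replicate number as a block, removal of each library's trend on length and GC content, both together, and leaving out each library. Dio2 and Selenov, and the markers Trac and Ly6g, were not analysed here.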

Additional observations from a re-analysis of the deposited data

How the results depend on the processing

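No alternative called any of the 9 machinery genes, and none called a general elongation or termination factor. Sephs1, Sephs2, Sepsecs, Pstk, Secisbp2l and Scly kept the sign of their fold change under all 18 alternatives. Eefsec was at -0.0257 with upper-quartile scaling, -0.00989 on log2(FPKM + 1), -0.0104 on log2(FPKM + 0.1) and -0.0470 to 0.0576 with a library left out. With a library left out, Secisbp2 ranged from -0.231 to 0.000514 and Trnau1ap from -0.0110 to 0.248. Over all genes, 181 calls became 330 with no count filter, 634 with DESeq2, 110 on log2(FPKM + 1), 79 on log2(TPM + 1), 312 with the length and GC trend removed, and 43 to 668 with a library left out (361, 77 and 668 without control replicates 1, 2 and 3, and 59, 43 and 60 without knockout replicates 1, 2 and 3). Selenoproteins called went from 1 to 2 with DESeq2 and 0 to 4 with a library left out (4 without control replicate 3, namely Dio1, Gpx3, Selenoi and Selenok). Selenium pathway genes called went from 1 to 2 with DESeq2, 0 on log2(FPKM + 1), log2(FPKM + 0.1) and log2(TPM + 1), and 0 to 2 with a library left out. The causes were not tested.

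With the replicate block the calls were 87 over all genes, 1 among selenoproteins and 0 among selenium pathway genes, also 0 with the length and GC trend removed besides. Same-numbered libraries correlated in their deviations at -0.16, -0.0786 and -0.076, and no control correlated best with its own number, so the numbers were not taken as pairs. With the block, the exact sign-flip p of both paralog ratios was 0.25, the smallest it can give, and without single libraries the differences ran from -0.252 to -0.0918 and from 0.210 to 0.684. Depth limits Pstk most, with 58 to 93 counts per library.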
